A study of Homo sapiens with 6 samples.

Results

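The core pluripotency transcription factors examined here are the genes POU5F1, SOX2, NANOG, SALL4, PRDM14, ZFP42, FOXD3, ZSCAN10 and UTF1. They were taken by symbol from a table of 16199 genes, and all 9 of them were measured. UTF1 was included with its difference between the edited genotypes already known. RNA was sequenced from H1, an established line of human embryonic stem cells, in 3 genotypes with 2 samples each. The wild-type cells carried no edit, the hemizygous cells carried DICER1 S1344L in the hemizygous state, and the homozygous cells carried it in the homozygous state. Both edited lines were made with CRISPR-Cas9, and DICER1 is the enzyme that cuts mature microRNAs from their hairpin precursors. The labels do not say how many clones were used or whether the samples of a genotype were separate cultures, so p-values reflect only how far these samples lie apart, which may be technical spread. Samples are called by genotype and replicate number below (wild type 1, wild type 2 and so on).

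POU5F1 (also called OCT4) and SOX2 bind DNA side by side at many enhancers of embryonic stem cells and, with NANOG, keep their own genes and each other's active. The other factors belong to the same circuit: SALL4 and PRDM14 hold differentiation genes silent, FOXD3 is a forkhead factor, and ZFP42 (REX1), ZSCAN10 and UTF1 are markers that are lost early when the cells differentiate. MicroRNAs touch this circuit: miR-145 silences pluripotency factors on differentiation.

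The sequences shown first are those through which these genes are tied to one another and to microRNAs. Promoter windows of 300 bases (250 before the transcript start, 50 after) were found in the RefSeq table (GRCh38.p14) for 6 of the 9 genes (FOXD3, SOX2, ZFP42, UTF1, NANOG and ZSCAN10). Both strands were searched for TTTGCAT, the POU part of the POU-SOX element, for the composite in which TTTGCAT is followed by any base and ACAA, and for ACAATG, a SOX site that can overlap the composite's end. The composite was found in the NANOG window and in 4 of 11412 promoters of genes in the table (0.0351%). TTTGCAT was found in NANOG and SOX2, and in 322 of the 11412 (2.82%). ACAATG was found in NANOG, and in 6.05% of the 11412. The GC box GGGGCGGGG was found in SOX2 and, at 3 places of which the last pair overlaps, in UTF1, and in 28.1% of all promoters. Capitals mark the motif in each line, read along the strand of the gene. The NANOG line is chr12:7789273-7789302 (plus strand), the SOX2 line chr3:181711814-181711843 (plus strand) and the UTF1 line chr10:133230121-133230150 (plus strand), all upstream of the start.
NANOG, composite: gcagctactTTTGCATTACAAtggccttgg
SOX2, POU part on the opposite strand: cgccccctttcATGCAAAacccggcagcga
UTF1, first GC box: cccggcgggcGGGGCGGGGcgcgcggggcg

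The longest annotated 3' UTR of each gene (GENCODE release 29) was searched for a match to the seed (bases 2 to 8) of miR-145-5p. A miR-145-5p match was found in SOX2 and SALL4, 2 of the 9 genes, and in 18.2% of 12961 genes with such a UTR. UTF1 and ZSCAN10 had the shortest 3' UTRs, 116 and 201 bases, and held no match, which says only that these letters are not in these stretches. In the microRNA the capitals mark the seed, and in the sites the letters that pair with it. MicroRNAs were not measured in these libraries.
miR-145-5p: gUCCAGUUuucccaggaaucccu
SOX2 site for miR-145-5p: gccggacagcgAACTGGAggggggagaaa
SALL4 site for miR-145-5p: tacttactggtAACTGGAcacgggtaaaa

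The libraries held 38164848 to 52924532 counts over the listed genes. The factors themselves had between 984 counts (FOXD3 in hemizygous 1) and 22061 counts (SOX2 in hemizygous 2). Values are given in CPM (counts scaled to a library total of 1000000, after TMM adjustment of the totals), as mean ± SD of 2 samples, and differences as log2 fold changes with their standard error (SE) from edgeR's quasi-likelihood test. DICER1, the edited gene, was at 169.4 and 126.1 CPM in wild type 1 and 2, in hemizygous 1 and 2 at 118.4 and 96.4, and in homozygous 1 and 2 at 128.95 and 117.9. Both hemizygous samples lay below both wild-type samples, as for 9.21% of all genes, and the homozygous samples overlapped with wild type. What lies behind the lower hemizygous values was not tested. Gene counts do not show a single-residue change, so these values do not check for the edit.

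All 9 factors were expressed in every sample, and none passed the test against wild type in either edited genotype. In hemizygous against wild-type samples edgeR called 0 of the 9 at an adjusted p under 0.05, against 0% of the 16199 genes (141 genes, 0.87%, had an unadjusted p under 0.05, none of the 9 among them). DESeq2 called 7 genes (0.0432%) and limma-voom 0 there, again with 0 of the 9. In homozygous against wild-type samples edgeR called 0 of the 9 and 0% of all genes (435 genes, 2.69%, had an unadjusted p under 0.05, with UTF1 as 1 of the 9). DESeq2 called 10 genes (0.0617%) and limma-voom 0, none of them a factor. The difference of UTF1 known beforehand rests on the same homozygous samples, so its unadjusted p is no separate evidence. In homozygous against hemizygous samples edgeR called 0% of genes (124 genes, 0.765%, had an unadjusted p under 0.05), DESeq2 10 (0.0617%) and limma-voom 0, with none of the 8 factors other than UTF1 among them. UTF1 was fitted with all genes in that comparison, but no test of it is quoted, as it was chosen with that difference known. In bulk RNA, fewer expressing cells and less RNA per cell cannot be told apart.

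**Figure D1:**
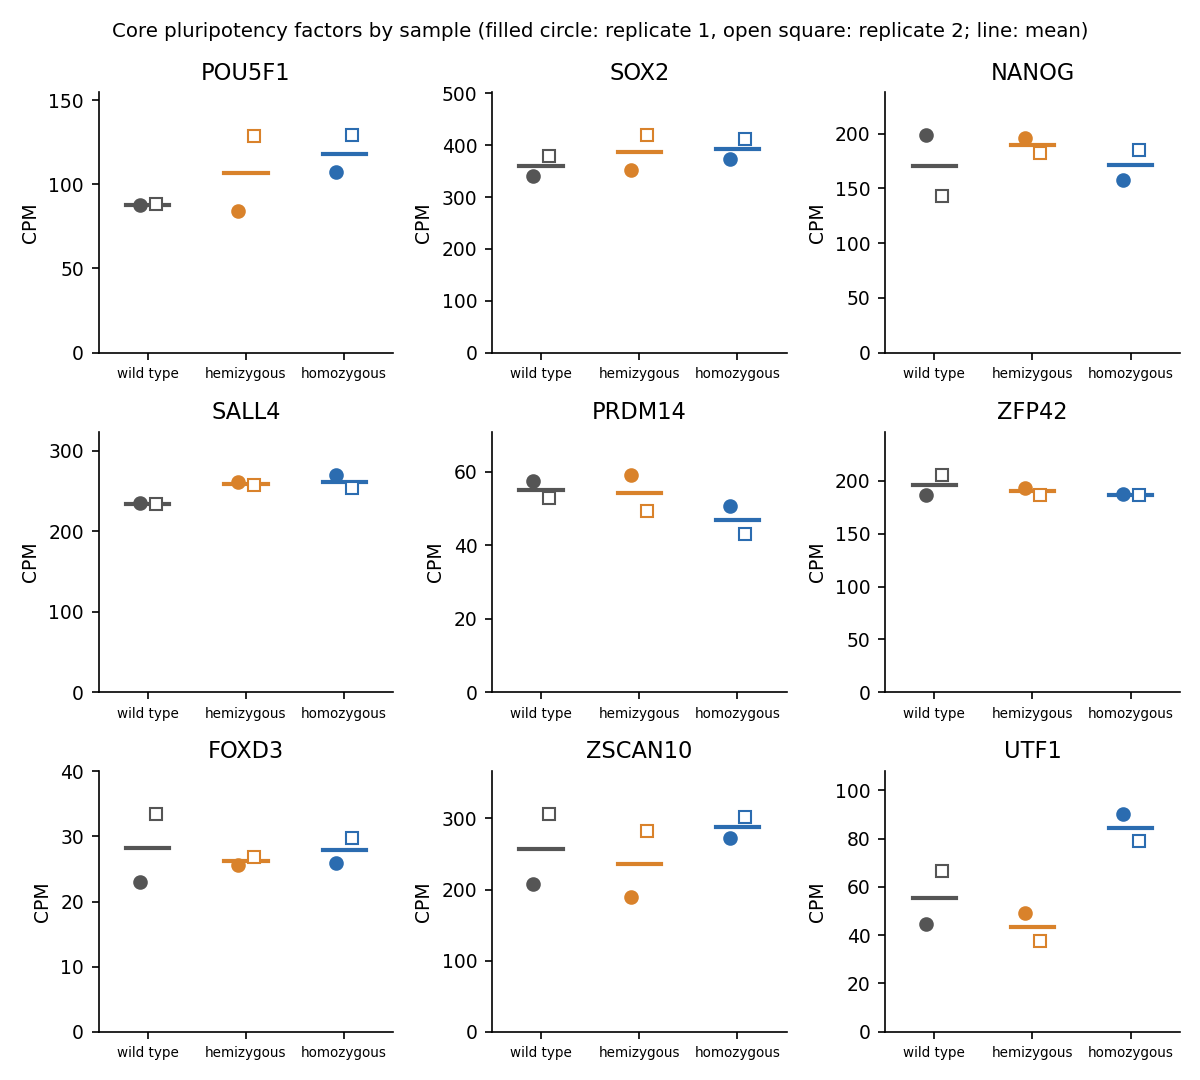
CPM of each factor (y axis, from 0) in the 3 genotypes (x axis), with replicate 1 as a filled circle, replicate 2 as an open square and the mean of 2 as a line. The UTF1 values of homozygous samples, 90.0 and 78.9, lie above all 4 others, while the highest SALL4 value is only 1.15 times the lowest.

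POU5F1, the POU-domain factor without which pluripotent cells do not form, lies at chr6:31164337-31180731 (GRCh38, minus strand). It was at 87.9 and 88.0 CPM in wild type 1 and 2, in hemizygous 1 and 2 at 84.4 and 128.5, and in homozygous 1 and 2 at 107.2 and 129.0. Both homozygous samples lay above both wild-type samples, and the hemizygous samples lay on either side of them. The log2 fold change against wild type was 0.42 ± 0.22 in homozygous samples (95% interval -0.09 to 0.94, edgeR adjusted p = 1.00) and 0.28 ± 0.22 in hemizygous samples (-0.24 to 0.79, edgeR adjusted p = 1.00). The hemizygous value came from hemizygous 2, without which it was -0.06.

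Reads of POU5F1 are hard to assign, because the genome holds near-identical copies of it. POU5F1B, a retrogene copy on chromosome 8, was at 84.5, 85.4, 71.0, 124.9, 108.8 and 116.8 CPM in the order used above. In CPM the wild-type means of POU5F1 and POU5F1B were close, 88.0 and 84.9. Per kb of exon POU5F1 was at 1.78 times the level of POU5F1B there, through annotated exon lengths of 2896 and 4964 bases. POU5F1P3 was at 77.6 to 96.8 CPM and POU5F1P4 at 7.67 to 10.5 CPM. POU5F1 held 33.5% to 36.8% of the counts given to these 4 genes. Their sum was 259.7 and 259.4 CPM in wild type 1 and 2, in hemizygous 1 and 2 at 242.5 and 359.7, and in homozygous 1 and 2 at 320.4 and 350.96. With the counts of the 4 genes added into 1 row, the log2 fold change against wild type was 0.37 in homozygous and 0.21 in hemizygous samples. Against wild type the copies had values of 0.41 (POU5F1B), 0.27 (POU5F1P3) and 0.30 (POU5F1P4) in homozygous samples, so the counts of all 4 genes were displaced in the same direction, and as they may hold the same reads they are not separate evidence.

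The surroundings of POU5F1 were thinly covered as well. Of 44 protein-coding genes within 500000 bases of it on either side, 2 were in the table (4.55%), against 66.5% of all 19951 protein-coding genes. The gene lies in the major histocompatibility region, for which GRCh38 also holds alternate sequences. The share for the other factors with such neighbours ran from 41.2% for NANOG to 100% for SALL4, PRDM14 and FOXD3. How the reads of this region were assigned was not tested.

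**Figure D2:**
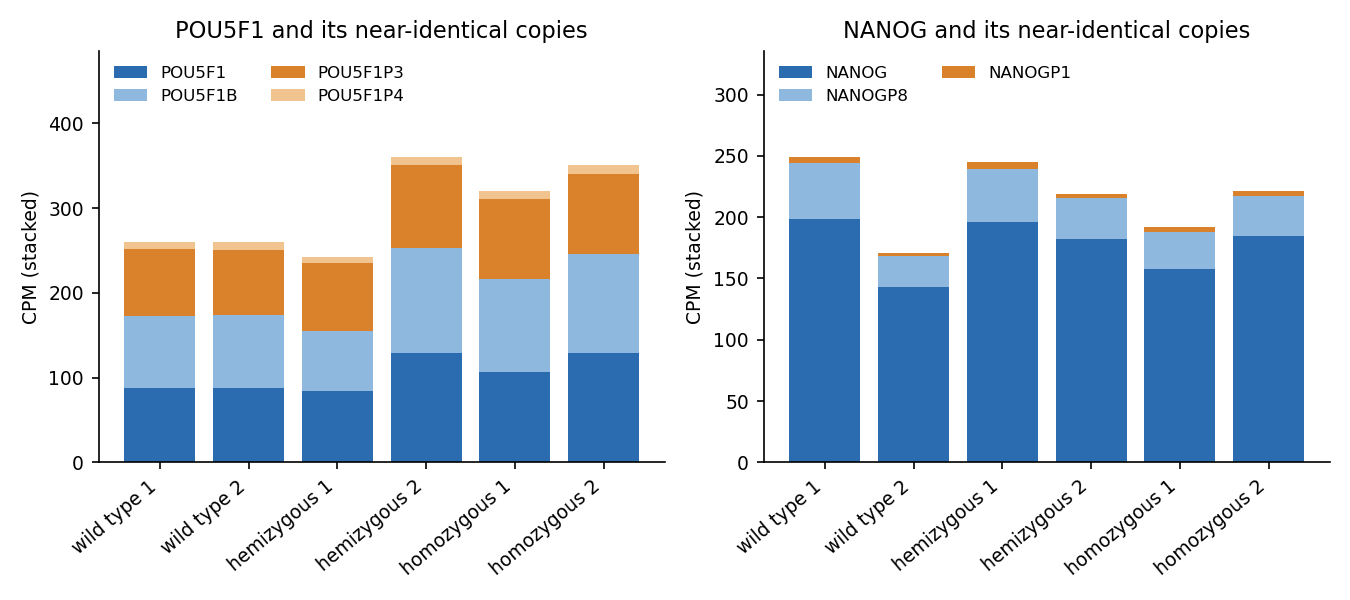
Stacked CPM (y axis, from 0) of POU5F1 with POU5F1B, POU5F1P3 and POU5F1P4 (left) and of NANOG with NANOGP8 and NANOGP1 (right) in the 6 samples (x axis). POU5F1 holds about the same part of its stack in every sample, 33.5% to 36.8%, and NANOG 79.7% to 83.5% of its own.

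SOX2, the HMG-box partner of POU5F1, lies at chr3:181711924-181714436 (plus strand). It was at 341.0 and 378.4 CPM in wild type 1 and 2, in hemizygous 1 and 2 at 352.9 and 418.7, and in homozygous 1 and 2 at 373.8 and 411.6. In each genotype the second sample was the higher, and the genotypes overlapped. Its log2 fold changes against wild type were 0.10 ± 0.15 in hemizygous (95% interval -0.25 to 0.45) and 0.13 ± 0.15 in homozygous samples (-0.22 to 0.47), with an edgeR adjusted p of 1.00 for each. The gene lies inside SOX2-OT, a long noncoding RNA on the same strand, which was at 3.42 to 4.46 CPM.

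NANOG, the homeodomain factor of the circuit, lies at chr12:7787794-7799141 (plus strand). It was at 198.3 and 142.7 CPM in wild type 1 and 2, in hemizygous 1 and 2 at 196.3 and 182.4, and in homozygous 1 and 2 at 158.0 and 184.8. The wild-type samples held both the highest and the lowest value, so every edited sample lay between them. The log2 fold change was 0.15 ± 0.19 in hemizygous (95% interval -0.30 to 0.60) and 0.01 ± 0.19 in homozygous samples (-0.44 to 0.46). Without wild type 2 these values were -0.06 and -0.20. NANOGP8, a retrogene copy of NANOG on chromosome 15, was at 25.4 to 45.8 CPM and NANOGP1, a tandem copy on chromosome 12, at 2.94 to 5.87 CPM. NANOG held 79.7% to 83.5% of the counts given to these 3 genes, and reads may be split among them.

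SALL4, a zinc-finger factor that recruits the NuRD repressor complex, lies at chr20:51782331-51802520 (minus strand). It was at 234.8 and 233.8 CPM in wild type 1 and 2, in hemizygous 1 and 2 at 261.2 and 257.1, and in homozygous 1 and 2 at 269.9 and 253.2. All 4 edited samples lay above both wild-type samples, by little: 0.15 ± 0.12 on the log2 scale in hemizygous samples (95% interval -0.14 to 0.43) and 0.16 ± 0.12 in homozygous samples (-0.13 to 0.44), edgeR adjusted p = 1.00 for each. PRDM14, a PR-domain factor that represses differentiation genes, lies at chr8:70051651-70071693 (minus strand). It was at 57.4 and 52.8 CPM in wild type 1 and 2, in hemizygous 1 and 2 at 59.1 and 49.4, and in homozygous 1 and 2 at 50.6 and 42.96. Both homozygous samples lay below both wild-type samples, and hemizygous samples overlapped with each of the other genotypes. Its log2 fold change was -0.24 ± 0.15 in homozygous (95% interval -0.61 to 0.13, edgeR adjusted p = 1.00) and -0.02 ± 0.15 in hemizygous samples (-0.39 to 0.35).

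ZFP42, a zinc-finger gene used as a marker of undifferentiated cells, lies at chr4:187995771-188005050 (plus strand) and varied least of the 9 genes. It was at 186.7 and 205.6 CPM in wild type 1 and 2, in hemizygous 1 and 2 at 193.7 and 186.9, and in homozygous 1 and 2 at 187.8 and 186.3, a highest value 1.10 times the lowest. The 95% intervals of its log2 fold change were -0.34 to 0.25 in hemizygous and -0.36 to 0.23 in homozygous samples. That leaves room for a change of up to 1.19-fold higher or 0.778 times the wild-type level.

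FOXD3, a forkhead factor of stem cells and neural crest, lies at chr1:63323041-63325126 (plus strand) and had the lowest level per kb of exon. It was at 23.1 and 33.4 CPM in wild type 1 and 2, in hemizygous 1 and 2 at 25.7 and 26.8, and in homozygous 1 and 2 at 25.9 and 29.8. All 4 edited samples lay between the wild-type samples, with log2 fold changes of -0.11 ± 0.20 in hemizygous and -0.02 ± 0.20 in homozygous samples. FOXD3-AS1 overlaps FOXD3 on the opposite strand and was at 71.4 to 112.0 CPM. The library kit does not mark strand, so reads from the overlap cannot be told apart. ZSCAN10, a SCAN-domain zinc-finger factor, lies at chr16:3088890-3099317 (minus strand). It was at 208.1 and 305.6 CPM in wild type 1 and 2, in hemizygous 1 and 2 at 190.2 and 281.9, and in homozygous 1 and 2 at 273.1 and 302.1. The samples numbered 1 of the wild-type and hemizygous cells were low, and the other 4 were alike. Its log2 fold change was -0.12 ± 0.25 in hemizygous and 0.16 ± 0.25 in homozygous samples, with intervals of -0.72 to 0.47 and -0.43 to 0.76.

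UTF1, a chromatin-bound factor that restrains developmental genes in stem cells, lies at chr10:133230274-133231558 (plus strand) and varied most, the highest sample at 2.41 times the lowest. It was at 44.6 and 66.6 CPM in wild type 1 and 2, in hemizygous 1 and 2 at 49.1 and 37.4, and in homozygous 1 and 2 at 90.0 and 78.9. The homozygous samples were above all 4 others, and the hemizygous samples overlapped with wild type. Homozygous samples were at 84.4 ± 7.85 CPM and hemizygous samples at 43.2 ± 8.26 CPM, a log2 fold change of 0.97 ± 0.23 or 1.95-fold. UTF1 was chosen with this difference known, so it is a description and no test of it is quoted. With each sample left out in turn it was between 0.78 and 1.18. Against wild type (55.6 ± 15.6 CPM) the values were 0.60 ± 0.23 in homozygous (95% interval 0.05 to 1.16, edgeR adjusted p = 1.00) and -0.36 ± 0.23 in hemizygous samples (-0.91 to 0.19, edgeR adjusted p = 1.00). These values rest on the same edited samples as the difference known beforehand, so their intervals are descriptions too. Leaving out wild type 1 or wild type 2 moved these values to 0.35 or 0.93 and to -0.62 or -0.03, and the wild-type samples differed by 0.58 on the log2 scale.

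The genes around UTF1 were measured beside it. The next gene on the chromosome, VENTX, a homeobox gene, was at 31.2 and 40.01 CPM in wild type 1 and 2, in hemizygous 1 and 2 at 30.7 and 37.4, and in homozygous 1 and 2 at 38.7 and 36.5, and its homozygous against hemizygous log2 fold change was 0.14 ± 0.18. Of 22 protein-coding genes within 500000 bases of UTF1, 14 were in the table, and their median was 0.15 in homozygous against hemizygous samples, -0.09 in hemizygous against wild-type and 0.04 in homozygous against wild-type samples.

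**Figure D3:**
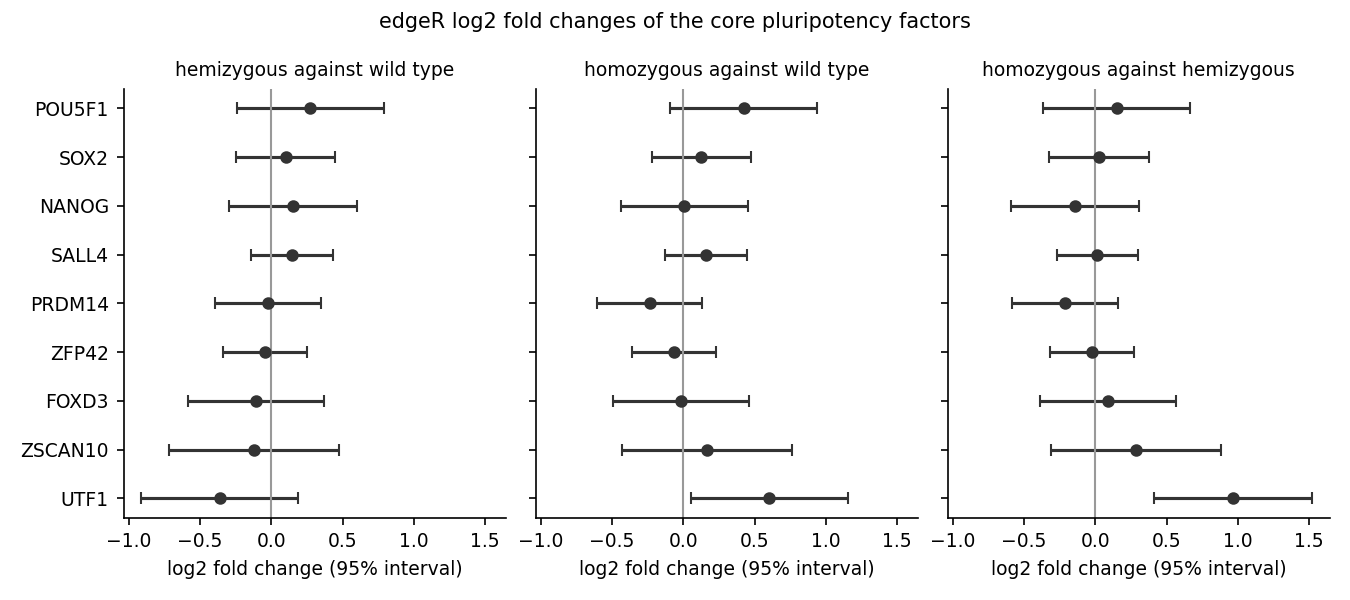
edgeR log2 fold change (x axis, point) with its 95% interval (bar) for each factor (y axis) in the 3 comparisons. Values run from -0.36 to 0.28 in hemizygous and from -0.24 to 0.60 in homozygous against wild-type samples, and UTF1 lies farthest from 0. The intervals are not adjusted for the 16199 genes tested. UTF1 was chosen with its difference between the edited genotypes known, so its interval there describes that difference and is not a test.

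As a list, the 9 factors were displaced about as much as other genes. In hemizygous against wild-type samples 4 of 9 had a log2 fold change above 0 (49.1% of all genes), with a median of -0.02 (all genes -0.00) and a median size regardless of sign of 0.12 (all genes 0.09). In homozygous against wild-type samples 6 of 9 were above 0 (49.3% of all genes), with a median of 0.13 (all genes -0.00) and a median size of 0.16 (all genes 0.14). In homozygous against hemizygous samples 6 of 9 were above 0 (49.9%), with a median of 0.03 and a median size of 0.14 (all genes 0.14). Both homozygous samples were above both wild-type samples for 3 factors, as for 14.2% of all genes, and below for PRDM14, as for 13.6%. The 3 were POU5F1, SALL4 and UTF1, the last chosen with a difference known that rests on the same homozygous samples. Both hemizygous samples were above both wild-type samples for SALL4 (8.13% of all genes) and below for none (9.21%). Both homozygous samples were above both hemizygous samples for UTF1 (11% of all genes), a difference known when it was chosen, and below for none (10.4%). The comparisons share samples.

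The sample number moved with several factors. POU5F1, SOX2, FOXD3 and ZSCAN10 were higher in the second sample of all 3 genotypes, by 0.55, 0.57 and 0.15 on the log2 scale for ZSCAN10 in wild type, hemizygous and homozygous cells, though by only 0.00 for POU5F1 in wild type. SALL4 and PRDM14 were lower in the second sample of all 3 genotypes, SALL4 by very little (-0.0059, -0.023 and -0.092 in wild type, hemizygous and homozygous cells). How many of all genes kept 1 direction in all 3 genotypes was not counted. NANOG, ZFP42 and UTF1 changed direction between genotypes. The median size of the difference between samples of 1 genotype was 0.15, 0.25 and 0.19 over the 9 factors, against 0.25, 0.29 and 0.21 over all genes.

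Per length of annotated exon, the scale used to set levels of different genes side by side, the order of the factors was led by SOX2. SOX2 was at 143.1 ± 10.5 CPM per kb in wild-type samples, ahead of ZSCAN10 (77.4 ± 20.8) and ZFP42 (73.9 ± 5.03), whose ranges overlapped. UTF1 (48.03 ± 13.5) and SALL4 (40.6 ± 0.118) overlapped likewise, as did NANOG (31.6 ± 7.30) and POU5F1 (30.4 ± 0.0158), both reduced by whatever reads went to their copies. PRDM14 (22.5 ± 1.32) and FOXD3 (13.5 ± 3.49) came last. FOXD3 exceeded 78.8% of all genes with a known length, and SOX2 98.8%. In homozygous samples UTF1 was at 73.0 ± 6.78 CPM per kb, next to ZFP42 at 70.4 ± 0.385, and in hemizygous samples at 37.4 ± 7.14, next to POU5F1 at 36.7 ± 10.8.

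**Figure D4:**
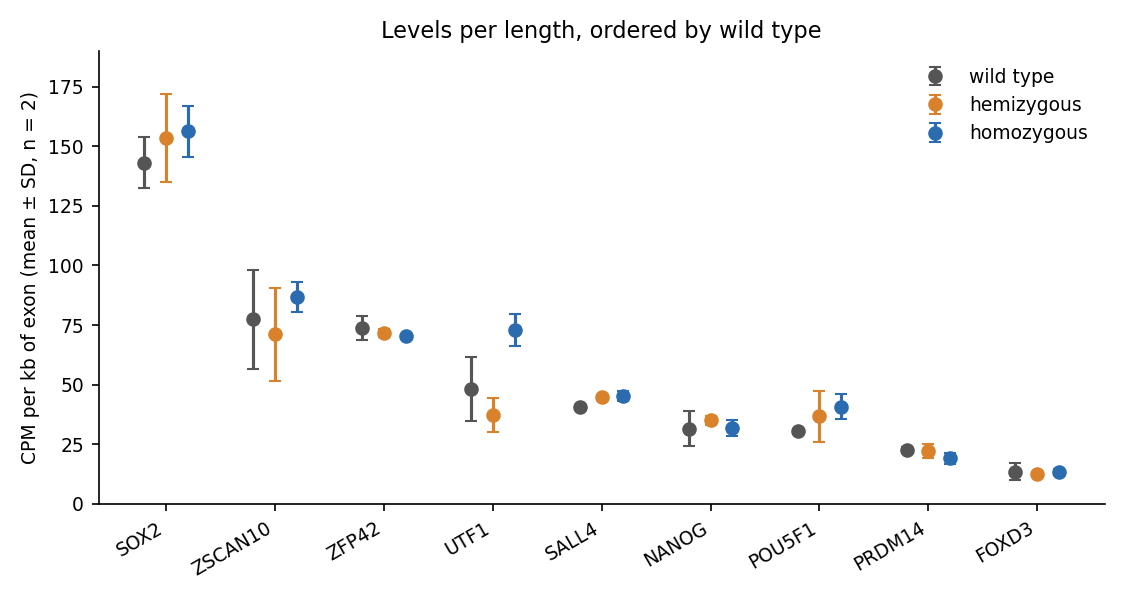
Level per length in CPM per kb of exon (y axis, from 0) for the 9 factors in order of their wild-type level (x axis), as mean ± SD of 2 samples per genotype. SOX2 leads in all 3 genotypes, and UTF1 runs from 37.4 in hemizygous to 73.0 in homozygous samples.

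Relatives of the factors differed in how far they were expressed beside them, in wild-type samples per kb. SOX2 was at 1.99 times the level of SOX4 (72.1 ± 0.635), a SOX-C factor, and 3.70 times that of SOX13 (38.7 ± 9.70), a SOX-D factor. SALL2 (87.4 ± 10.5), another spalt-like factor, was higher than SALL4, and SALL1 (19.7 ± 1.78) lower. POU2F1 (11.1 ± 0.378), the widely expressed OCT1, was the next POU gene after POU5F1 and POU5F1B (17.1 ± 0.128). FOXD1 (1.02 ± 1.10) was the only other FOXD gene in the table. edgeR called none of the measured relatives in any comparison.

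The other transcription factors of pluripotency, 18 of 18 in the table, included 0 called by edgeR in each comparison, with medians of 0.03 in hemizygous and -0.08 in homozygous against wild-type samples. ZIC2, which acts in primed stem cells, had a log2 fold change of -0.06 in homozygous samples. MYC and MYCN, which drive growth and division, had 0.15 and -0.33, and OTX2, a factor of the primed state, -0.19. MYCN was at 75.7 and 102.2 CPM in wild type 1 and 2, and 66.0 and 75.4 in homozygous 1 and 2, so the groups only just did not overlap. Both homozygous samples were below both wild-type samples for 5 of the 18 (13.6% of all genes) and above for 0 (14.2%). ETV4 and ETV5, ETS factors downstream of FGF signalling, were singled out after their values were seen. ETV4 was at 190.8 and 253.6 CPM in wild type and 154.8 to 160.1 in the 4 edited samples, a log2 fold change of -0.50 in both edited genotypes, the lowest of the list. ETV5 also lay below wild type in all 4, with -0.27 in hemizygous and -0.46 in homozygous samples. KLF4, a reprogramming factor, was low in all samples, at 3.66 to 6.68 CPM.

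Of 30 pluripotency-associated genes that are not such factors, 30 were in the table and edgeR called 0 in each comparison, with medians of 0.05 and -0.03 in hemizygous and homozygous against wild-type samples. LIN28A, which blocks let-7 maturation, was at 1874 ± 350, 2182 ± 96.7 and 2239 ± 331 CPM in wild-type, hemizygous and homozygous samples, and DNMT3B, a DNA methyltransferase, at 2305 ± 209, 2644 ± 446 and 2264 ± 69.9 CPM. DPPA4, a chromatin factor of early embryos, differed from wild type by 0.04 on the log2 scale in both. TDGF1, a Nodal co-receptor, and L1TD1, an RNA-binding protein, were above wild type in all 4 edited samples, by 0.19 and 0.28 in hemizygous and 0.22 and 0.29 in homozygous samples. For TDGF1 the gap was narrow, 746.8 CPM in hemizygous 1 against 744.6 in wild type 1. Of the 30 genes, 6 were above wild type without overlap in hemizygous samples (8.13% of all genes) and 3 below (9.21%). In homozygous samples 6 were above (14.2% of all genes) and 6 below (13.6%). GDF3 and LEFTY2, TGF-beta family ligands, had 0.14 and -1.16 in hemizygous and -0.03 and -1.40 in homozygous samples. LEFTY2 was at 14.6 and 5.63 CPM in wild type 1 and 2, in hemizygous 1 and 2 at 6.88 and 2.24, and in homozygous 1 and 2 at 5.62 and 2.02. The hemizygous samples overlapped with wild type, and the homozygous samples lay only just below it. Sample 2 against sample 1 was at -1.37, -1.62 and -1.48 on the log2 scale in wild type, hemizygous and homozygous cells. LEFTY1, singled out after its values were seen, was at 11.9 and 9.01 CPM in wild type 1 and 2. It was at 5.40 and 0.588 in hemizygous 1 and 2, and at 2.31 and 0.862 in homozygous 1 and 2. All 4 edited samples lay below wild type, with the lowest log2 fold changes of the list, -1.82 in hemizygous and -2.71 in homozygous samples. LEFTY1 too was lower in sample 2 of each genotype. FGF4, whose enhancer is a known site of joint POU5F1 and SOX2 binding, was at 17.5 and 17.0 CPM in wild type 1 and 2, in hemizygous 1 and 2 at 24.0 and 25.1, and in homozygous 1 and 2 at 30.2 and 28.3. The FGF4 groups did not overlap, and its log2 fold change was 0.51 ± 0.13 in hemizygous and 0.76 ± 0.13 in homozygous samples (edgeR adjusted p = 1.00 for each, DESeq2 adjusted p = 1.00 and 0.0178). Of 18 naive pluripotency genes 11 were in the table and edgeR called 0. KLF5 and TFCP2L1, factors of that state, had -0.07 and -0.13 in homozygous samples, and DPPA5, an RNA-binding protein, 0.97 ± 0.56 in hemizygous and 1.63 ± 0.57 in homozygous samples.

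Among all genes with a mean of at least 1 CPM, the 3 whose pattern over the 6 samples was most like that of UTF1, POU5F1 and ZFP42 were sought by the root-mean-square difference of log2 CPM after centring each gene. For POU5F1 they were CD52, a surface glycoprotein gene (0.0440), HSPA2, a heat shock protein gene (0.0505), and STMN2, a neuronal microtubule regulator (0.0626), and 36 of 15129 genes lay within 0.1. For ZFP42 they were EHMT1, a histone methyltransferase (0.00850), SNX33, a sorting nexin (0.0199), and the pseudogene EIF3FP3 (0.0210), and 2088 genes lay within 0.1. For UTF1 they were ENSG00000225721 (0.203), ZNF558, a zinc-finger gene (0.225), and PCSK1N, a proprotein convertase inhibitor (0.235), and 0 genes lay within 0.1. UTF1 had a range of 1.27 on this log2 scale, against 0.61 for POU5F1 and 0.14 for ZFP42. Among the 9 factors the most alike were SALL4 and ZFP42 (0.110) and the least alike NANOG and UTF1 (0.569).

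**Figure D5:**
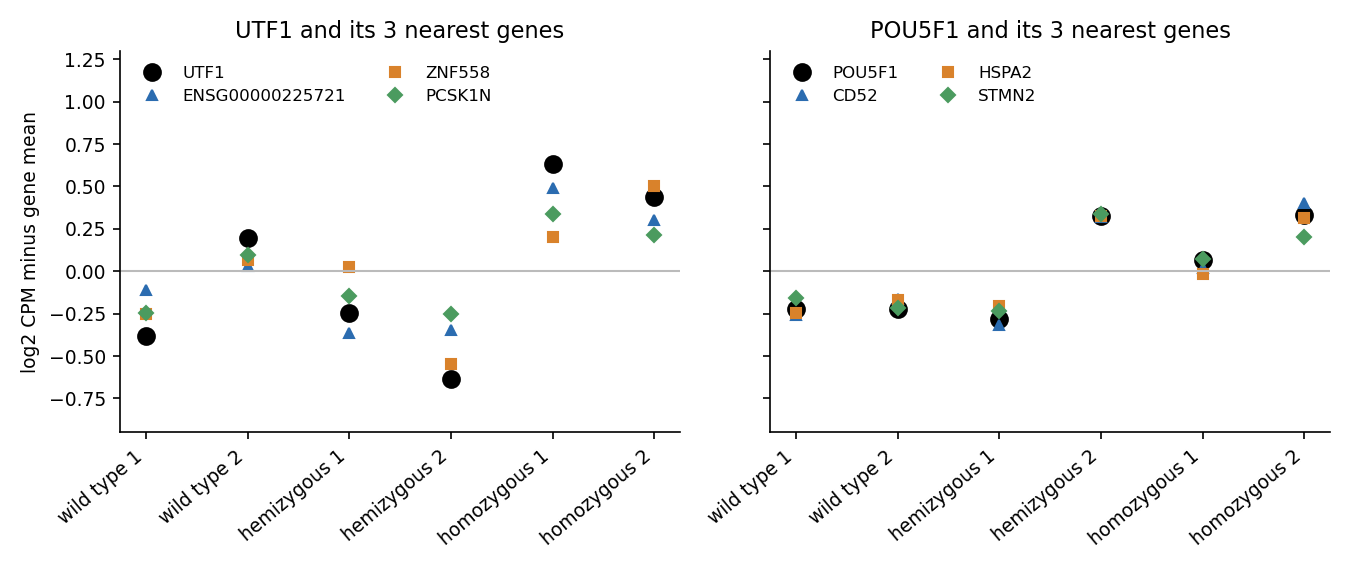
Log2 CPM minus the mean of the gene (y axis) in the 6 samples (x axis) for UTF1 (left) and POU5F1 (right), each with its 3 nearest genes. The symbols of POU5F1 and its neighbours nearly coincide (differences of 0.0440 to 0.0626), while those of UTF1 spread further (0.203 to 0.235).

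Markers of other cell types were looked at beside the factors. The defining markers PAX6 and SOX1 (neural ectoderm), TBXT and EOMES (primitive streak), SOX17 and FOXA2 (endoderm) and CDX2 and GATA3 (trophoblast) were not among the genes analysed here. Of 10 listed neural ectoderm markers 3 were in the table, summing to 448.6 to 492.8 CPM in wild-type, 465.0 to 560.0 in hemizygous and 407.1 to 419.5 in homozygous samples. NES, an intermediate filament gene, made up most of that sum, at 370.9 to 514.8 CPM over the 6 samples. The other measured members were above wild type in all 4 edited samples: ZIC1, a zinc-finger factor, was at 17.9 and 16.3 CPM in wild type and 28.01 to 58.9 in edited samples, and FABP7, a fatty acid-binding protein, at 2.99 in both wild-type and 4.22 to 8.15 in edited samples. edgeR called neither (adjusted p = 0.710 for ZIC1 in hemizygous samples), and DESeq2 called ZIC1 there (adjusted p = 1.34e-07). Of 12 primitive streak and mesoderm markers 6 were in the table, at 266.5 to 285.0, 341.8 to 404.4 and 373.0 to 387.7 CPM. KDR, a VEGF receptor, carried that sum, at 257.1 and 275.5 CPM in wild type and 332.5 to 392.6 in edited samples. Both hemizygous samples were above both wild-type samples for 2 of the 6, KDR and PDGFRA (8.13% of all genes). Both homozygous samples were above both wild-type samples for 4 of the 6, KDR, PDGFRA, TBX6 and MESP1 (14.2% of all genes). MIXL1 and MESP2, transcription factors of the streak and early mesoderm, overlapped with wild type in both. PDGFRA (0.870 to 2.48 CPM) and MESP1 (0.289 to 0.816 CPM) were low in all samples, and edgeR called 0 of the 6. Of 10 neuron markers 8 were in the table, at 159.0 to 206.5, 205.7 to 255.4 and 200.5 to 222.0 CPM. SYT1 made up most of that sum, at 100.2 to 171.7 CPM over the 6 samples. In hemizygous samples 2 of the 8 were above wild type without overlap, GAP43 and DCX (8.13% of all genes), and 1 below, TUBB3 (9.21%). In homozygous samples 3 were above, GAP43, DCX and STMN2 (14.2% of all genes), and 2 below, MAP2 and SNAP25 (13.6%). Of 10 neural crest markers 4 were in the table, at 47.9 to 49.7, 47.6 to 53.6 and 43.6 to 48.01 CPM. Of 10 definitive endoderm markers 2 summed to at most 4.22 CPM in any sample, and of 12 trophoblast and amnion markers 3 summed to at most 19.2 CPM. Of 11 fibroblast and mesenchyme markers, some of which stem cells express too, 7 were in the table, at 1416.7 to 1616.9, 1416.1 to 1726.3 and 1340.9 to 1399.8 CPM. Their part in the differences of the factors was not tested.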

How the data were processed

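RNA from 6 samples of H1 cells was sequenced from libraries of the TruSeq RNA Library Prep Kit, per the labels' protocols, a kit that does not mark strand. Reads were processed with cutadapt, with HISAT2 as aligner and hg38 as genome, as the submitters' processing notes list them. For the counting program and its annotation, nothing is given in the sources used here. The authors deposited raw counts per gene. Each gene in the table exceeded 0.5 CPM in 3 or more samples, so weakly expressed genes are missing from it. Sample totals were 38164848 to 52924532 counts. The intervals cover neither a bias of library preparation shared by all samples nor read assignment.

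The 3 comparisons were fitted on all 16199 genes and 6 samples with edgeR 4.0.16 in R 4.3.3: TMM scaling, filterByExpr (0 genes removed), quasi-likelihood test, Benjamini-Hochberg adjusted p under 0.05 over all genes, 3 residual degrees of freedom. The script was tested on simulated data. Alternatives used DESeq2 1.42.0, limma-voom (limma 3.58.1), other scalings and filters, 4 samples, 1 sample left out, summed copies, and the replicate number as a block. Pairs of libraries differed by a chi-square of 11.5 to 97.4 per degree of freedom, so none was a copy of another.

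Of the genes, 15907 were matched to GENCODE release 29 for positions and exon lengths. Named were the 9 factors, DICER1, genes picked by name from the 16 other lists, the relatives with the highest level per length, copies, and nearest genes (prior count 2). A gene and a sequence match are not reported here. VENTX (the neighbour of UTF1), ETV4, ETV5, LEFTY1 and the marker genes were picked with their values in view. The factors, lists, sequence searches and tests were chosen with earlier results of these data known. Tables and figures were made in Python 3.11.15 (pandas 2.3.3, matplotlib 3.10.9).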

Additional observations from a re-analysis of the deposited data

Results flagged for a closer look

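UTF1 lay on opposite sides of the wild-type mean in the edited genotypes. Both hemizygous samples (43.2 CPM on average) lay below the wild-type mean and both homozygous samples (84.4 CPM) above it, a difference of 0.97 on the log2 scale between homozygous and hemizygous samples. The hemizygous samples overlapped with wild type (49.1 CPM in hemizygous 1 against 44.6 in wild type 1), and without wild type 2 their log2 fold change was -0.03. No test of the difference between the edited genotypes is quoted, because UTF1 was chosen with it known. Groups of 2 are too small to look for single samples that stand apart.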

How the results depend on the processing

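The count of genes called by edgeR, 0 in each comparison, became 7 in hemizygous against wild-type, 10 in homozygous against wild-type and 10 in homozygous against hemizygous samples with DESeq2. It was, when the replicate number entered as a block, 1 in hemizygous against wild-type, 0 in homozygous against wild-type and 1 in homozygous against hemizygous samples. The labels do not say that a number marks a shared culture or day, and by the labels the samples share only a number. In their counts the samples numbered 2 were closer, at a chi-square of 11.5 to 23.2 per degree of freedom between genotypes. Wild type 1 and hemizygous 1 were at 16.5, but homozygous 1 was at 58.3 and 55.7 from them. Samples of 1 genotype were at 41.7 to 90.3. Across genes, deviations from the genotype means correlated between samples of the same number (0.741 for wild type with hemizygous, 0.357 for wild type with homozygous and 0.476 for the edited genotypes). Leaving out 1 sample gave 0 to 2, 0 to 1 and 0 to 3 genes. None of the 9 factors was among the genes called against wild type under any of these settings. Nor was any of the 8 factors other than UTF1 called between the edited genotypes, where no test of UTF1 is quoted. The block changed no call of a tested factor, but the SE of every factor was smaller with it. For POU5F1 in homozygous against wild-type samples the SE went from 0.22 to 0.14, with an edgeR adjusted p of 0.377. Other scalings, filters, limma-voom and the fit on 4 samples left the counts at 0.

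Of 243 values of the factors under settings that left out no single sample, 2 turned direction, both from near 0: in homozygous against wild-type samples FOXD3 was at 0.0098 with limma-voom, and NANOG with its copies summed, a setting added after seeing the data, at -0.021. Of 162 values with 1 sample left out, 21 turned direction. In hemizygous against wild-type samples the log2 fold change without 1 sample ran from -0.060 to 0.55 for POU5F1, -0.027 to 0.23 for SOX2, -0.056 to 0.41 for NANOG, -0.15 to 0.10 for PRDM14, -0.11 to 0.038 for ZFP42, -0.34 to 0.20 for FOXD3 and -0.43 to 0.19 for ZSCAN10. In homozygous against wild-type samples it ran from -0.20 to 0.27 for NANOG, -0.13 to 0.016 for ZFP42, -0.25 to 0.28 for FOXD3 and -0.080 to 0.48 for ZSCAN10. In homozygous against hemizygous samples it ran from -0.12 to 0.48 for POU5F1, -0.090 to 0.15 for SOX2, -0.034 to 0.059 for SALL4, -0.050 to 0.0033 for ZFP42 and -0.018 to 0.19 for FOXD3. The nearest genes of UTF1, POU5F1 and ZFP42 were the same 3 each with a prior count of 0.5. With 2 samples a genotype, small changes could not be detected. The intervals given for each factor are not adjusted for the 16199 genes tested, so they are not the limit of detection. UTF1 in homozygous against wild-type samples had an interval of 0.05 to 1.16 and was not called.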
